A study of Mus musculus with 4 samples.

Results

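The collagen genes of the mouse left ventricle were followed through 4 droplet libraries, 1 library per condition. A gene was counted as a collagen gene when its symbol had the form Col, a number, a and a number. Of 44 such genes in the matrices, 39 held at least 20 unique molecular identifiers (UMIs, each standing for 1 captured transcript) over the 4 libraries, out of 17699 genes of any kind with that many and 32285 genes listed. The 39 genes comprised 10 fibrillar, 8 basement membrane, 5 microfibril, 7 FACIT, 3 network, 1 anchoring and 3 transmembrane collagens and 2 that were placed in no type. The members nearest to the limit were Col10a1 with 22 and Col19a1 with 25 UMIs, and the genes just outside it were Col17a1 with 16 and Col9a2 with 14. Col24a1, Col9a1 and Col6a4 held 11, 7 and 4 UMIs and were not followed further.

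Collagen chains wind into a triple helix, and the types differ in what the helices build. Fibrillar collagens form the tensile fibers between muscle cells. Basement membrane collagens form the sheet around vessels and cardiomyocytes, microfibril collagens (type VI) tie cells to that sheet, and FACIT collagens (fibril-associated collagens with interrupted triple helices) sit on the surface of the fibers. In the heart fibroblasts are the main source of fibrillar collagen, vascular cells are a large source of type IV, and scar formed after infarction consists mostly of types I and III.

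The animals were male C57BL/6J mice, young at 3-5 months and aged at 24-26 months, labelled Wild-Type in every group. The injured hearts had 45 min of ischemia by surgery on the left anterior descending artery and 24 h of reperfusion (ischemia/reperfusion, I/R). The other hearts are called sham, as in the sample titles and the study's text, while another part of the labels describes them as healthy and unaltered. The labels name nuclear RNA and the study single cells, how many mice gave each library is not stated, and no condition has a second library.

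Values of all libraries are given in 1 order throughout, young before aged and, at each age, sham before I/R. The libraries held 25836175, 39673199, 41356670 and 66767829 UMIs in 92200, 102883, 100342 and 91124 barcodes, with medians of 244 to 675 UMIs per barcode. Pairs of libraries shared 2366 to 2843 barcode sequences, at most 2.83% of the smaller one. Cardiomyocyte markers summed to 82733 to 107220 CPM (UMIs of the gene per 1000000 UMIs of the library) and all 12 were detected, as a label of left ventricle requires. All values below are CPM of the UMIs summed over every barcode of a library, so that fewer cells of a type and less RNA per cell cannot be told apart. The young I/R library stood apart: the median gene lay at a log2 ratio of -0.53 to young sham, against 0.09 for aged I/R to aged sham, -0.14 for aged to young sham and 0.48 for aged to young I/R, and the single transcript Gm42418 took 19.4% of its UMIs against 11.5% to 14% elsewhere. Ratios are on the CPM scale unless given as relative to the median gene, and are to be read against these medians. Shares within the collagens, which no scaling can move, are given first. The comparison of the aged hearts does not use the young I/R library. With 1 library per condition nothing could be tested between conditions, and all intervals are 95% intervals of counting error only.

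Type IV collagen made up more of the collagen UMIs in the injured hearts than in the sham hearts, by most in young mice. Col4a1 and Col4a2, which encode the chains of the common type IV network, together held 30.0% of the collagen UMIs in young sham and 51.2% (exact binomial interval 50.7 to 51.7) in young I/R. In the aged hearts the pair held 27.3% in sham and 36.0% (35.7 to 36.4) in I/R. Fibrillar collagens held 39.0%, 28.4%, 40.7% and 39.0% of the UMIs of the 4 libraries. The fibrillar share was thus low in 1 library, young I/R, and between 39.0% and 40.7% in the other 3. Such shares are tied, since a larger share of Col4a1 and Col4a2 makes the others smaller. The 37 collagens without this pair held 70.0%, 48.8%, 72.7% and 64.0%. Beside these values the fibrillar share of young I/R was not low. Microfibril collagens held 11.5%, 7.18%, 10.8% and 9.38%, and FACIT collagens 2.08%, 1.31%, 3.04% and 2.18%, both lower in I/R than in sham at either age.

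**Figure D1:**
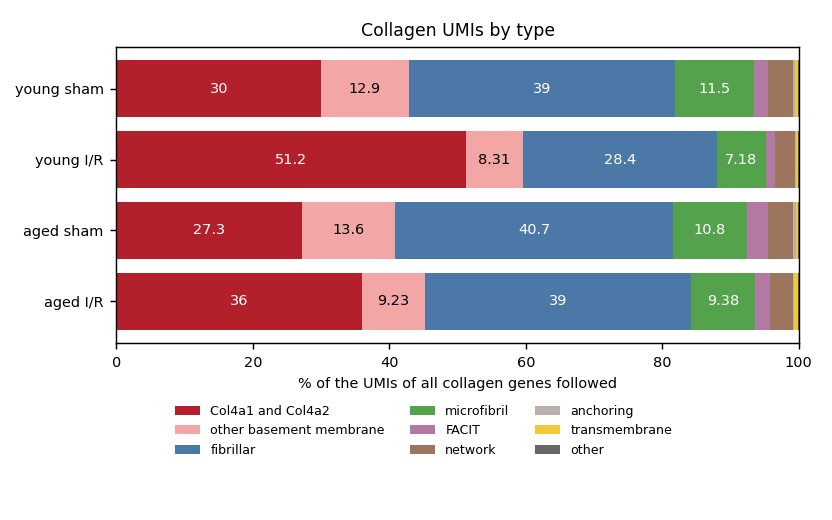
Share of the UMIs of the 39 collagen genes by type, in percent (x axis), for each of the 4 libraries (bars). The dark red part, Col4a1 and Col4a2, is 30.0% in young sham and 51.2% in young I/R, and 27.3% and 36.0% in aged sham and aged I/R.

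The summed CPM shows which side of these shares moved. The 39 collagens summed to 1100.5, 955, 1064 and 1091 CPM in the 4 libraries. Col4a1 and Col4a2 summed to 330, 489, 290 and 393 CPM, while the remaining 6 basement membrane genes summed to 142, 79.4, 145 and 101 CPM. As sums, these 2 parts of the basement membrane type lay on opposite sides of sham in both injured libraries. Within the 6 genes the sides were mixed. Col18a1 was above sham in young I/R, at a log2 ratio of 0.39. In aged I/R Col4a3 at 0.29 (0.01 to 0.58), Col4a5 at 0.07 (-0.02 to 0.16) and Col18a1 at 0.04 (-0.14 to 0.22) were above sham. The intervals of Col4a5 and Col18a1 hold 0, and both genes lay slightly below the median gene. That of Col4a3 reached the median gene. Fibrillar collagens summed to 429, 271, 433 and 426 CPM. For the fibrillar sum the log2 ratio was -0.66 (-0.70 to -0.62) in young I/R and -0.03 (-0.05 to 0.00) in aged I/R, which is -0.13 and -0.11 relative to the median gene. Most of the low fibrillar CPM in young I/R was shared with the median gene of that library.

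The genes of the type IV chains lie in head-to-head pairs, and the first and second of these pairs went opposite ways in young I/R. Col4a1 (ENSMUSG00000031502, chr8:11198423-11312826, minus strand) and Col4a2 (ENSMUSG00000031503, chr8:11312805-11449287, plus strand) overlap at their starts by 22 bases in GRCm38. Col4a4 (chr1:82448423-82586849, minus strand) and Col4a3 (chr1:82586921-82722059, plus strand), whose chains form a network best known from the kidney glomerulus, lie 71 bases apart, and Col4a6 and Col4a5 lie 1308 bases apart on chromosome X. The windows at the starts of the first pair are shown since the 2 genes moved together, that of Col4a4 since it moved the other way, and those of Col3a1 and Col1a2 as the most abundant fibrillar genes. Each window runs from 250 bases before to 50 bases after the RefSeq start (GRCm38.p6), 5′ to 3′ on the gene's strand, with capitals wherever either strand reads TATAAA, the letters of a common promoter element near the start, or reads CCAAT, or reads GGGCGG, known as the GC box. The positions of the windows are chr8:11312777-11313076 for Col4a1, chr8:11312555-11312854 for Col4a2, chr1:82586800-82587099 for Col4a4, chr1:45311288-45311587 for Col3a1 and chr6:4505368-4505667 for Col1a2.
Col4a1: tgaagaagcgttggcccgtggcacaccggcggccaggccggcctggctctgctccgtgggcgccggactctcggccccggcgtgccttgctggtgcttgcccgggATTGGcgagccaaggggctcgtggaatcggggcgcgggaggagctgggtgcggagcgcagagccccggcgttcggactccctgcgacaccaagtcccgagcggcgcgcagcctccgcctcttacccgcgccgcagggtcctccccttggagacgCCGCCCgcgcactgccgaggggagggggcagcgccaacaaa
Col4a2: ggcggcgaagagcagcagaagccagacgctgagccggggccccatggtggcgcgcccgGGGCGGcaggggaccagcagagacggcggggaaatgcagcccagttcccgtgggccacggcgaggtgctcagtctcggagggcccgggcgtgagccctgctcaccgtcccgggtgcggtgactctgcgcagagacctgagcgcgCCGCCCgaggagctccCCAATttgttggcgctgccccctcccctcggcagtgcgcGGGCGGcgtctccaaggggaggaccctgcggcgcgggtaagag
Col4a4: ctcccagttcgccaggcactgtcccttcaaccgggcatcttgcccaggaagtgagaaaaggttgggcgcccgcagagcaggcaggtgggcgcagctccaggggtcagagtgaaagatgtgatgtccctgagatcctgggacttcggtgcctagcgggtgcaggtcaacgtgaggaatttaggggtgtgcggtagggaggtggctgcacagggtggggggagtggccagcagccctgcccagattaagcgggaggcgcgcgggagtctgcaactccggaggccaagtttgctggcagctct
Col3a1: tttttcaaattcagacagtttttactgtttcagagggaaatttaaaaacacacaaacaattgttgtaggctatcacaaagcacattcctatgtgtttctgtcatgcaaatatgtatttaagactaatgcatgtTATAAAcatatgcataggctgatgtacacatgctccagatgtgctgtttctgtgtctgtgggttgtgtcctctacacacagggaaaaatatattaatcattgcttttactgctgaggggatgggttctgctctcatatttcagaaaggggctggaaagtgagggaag
Col1a2: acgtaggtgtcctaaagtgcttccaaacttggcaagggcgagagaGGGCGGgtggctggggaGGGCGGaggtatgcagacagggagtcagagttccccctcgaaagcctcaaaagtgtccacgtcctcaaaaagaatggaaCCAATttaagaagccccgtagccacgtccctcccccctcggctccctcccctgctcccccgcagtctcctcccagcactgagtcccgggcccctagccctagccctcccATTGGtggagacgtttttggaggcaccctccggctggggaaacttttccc
The Col4a1 and Col4a2 windows share 78 bases of the same DNA, read from opposite strands. Both hold CCAAT once, and they hold 1 and 3 GC boxes. Neither of them holds TATAAA. These letters stand once in the Col3a1 window, well before its start and not near it. The Col4a4 window holds none of the 3 motifs. Guanine and cytosine make up 74% and 73.7% of the Col4a1 and Col4a2 windows, 63.3% of that of Col4a4 and 37.7% of that of Col3a1. Over the 32 windows found for 30 of the 39 genes the GC box letters stood in 65.6%, against 35.6% of 32817 windows of all genes. The CCAAT letters stood in 31.2% against 37.4% and the TATAAA letters in 12.5% against 13.6%. A match describes the letters and not a bound factor.

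Levels ran over more than 3 orders of magnitude, from 41705 UMIs for Col4a1 to 22 for Col10a1. The kit captures the 3′ end of a transcript, so CPM were compared between genes as captured transcripts without division by length. Col4a1 was the most abundant collagen gene in every library, with Col3a1 next in both sham libraries and Col4a2 next in both I/R libraries. The plot of levels by type shows the 28 genes with at least 200 UMIs.

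**Figure D2:**
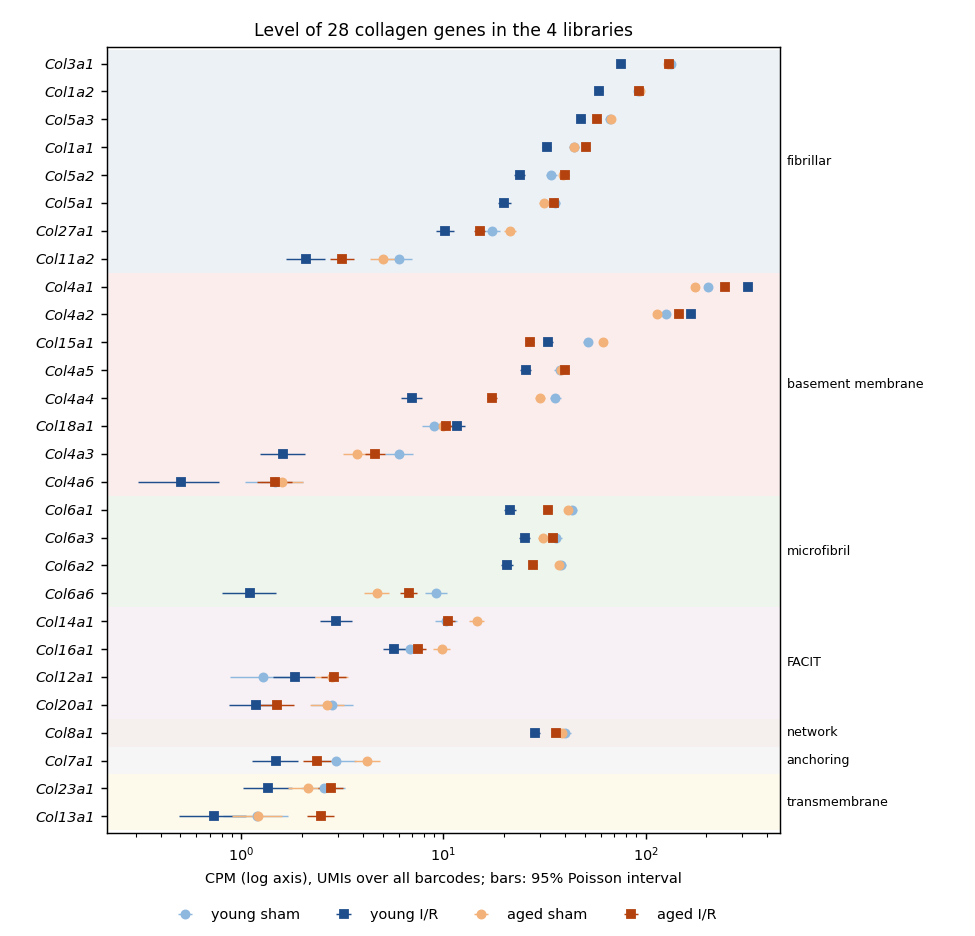
CPM of the 28 collagen genes with at least 200 UMIs (log axis), grouped by type and ordered by UMIs within a type, in the 4 libraries (colored points) with 95% Poisson intervals of counting error (bars). The young I/R points (dark blue squares) lie at the left end for most genes and at the right end for Col4a1, Col4a2 and Col18a1.

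The first comparison sets injured against uninjured young hearts. In young I/R, 25 of 39 collagen genes were at least 1.5-fold lower than in young sham (64.1%, against 47.5% of all genes tested) and 4 were at least 1.5-fold higher (10.3%, against 8.03%). The median collagen log2 ratio was -0.77 and that of all genes -0.53. Relative to the median gene 12 collagens were at least 1.5-fold lower and 7 higher, where the shares of all genes were 25.2% and 22.4%. Both shares of the collagens, 30.8% and 17.9%, are near those of all genes. The summed collagens lay at 0.33 relative to the median gene, and the sum of the 37 without Col4a1 and Col4a2 at -0.20. Among the 28 genes with at least 200 UMIs the ratios ran from -3.05 to 0.65.

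Among the basement membrane genes Col4a1 stood at 204 CPM in young sham and 321 in young I/R, and at 176 and 246 in the aged libraries. The log2 ratio to sham was 0.65 (0.61 to 0.70) in young and 0.48 (0.44 to 0.52) in aged hearts. Col4a2 stood at 126 and 168 CPM in young and at 114 and 147 CPM in aged hearts, with ratios of 0.42 (0.36 to 0.48) and 0.37 (0.32 to 0.42). Both genes were higher in I/R than in sham at both ages, with either scaling. Their ratio to each other, Col4a1 over Col4a2, was 1.62 (1.55 to 1.69) in young sham, 1.91 (1.85 to 1.965) in young I/R, 1.54 (1.49 to 1.60) in uninjured aged hearts and 1.67 (1.63 to 1.71) after aged I/R. Col4a1 thus stood higher relative to its partner in both injured libraries than in the sham library of the same age.

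Col4a4 behaved unlike them and stood at 35.8, 6.96, 30.0 and 17.4 CPM. Its log2 ratio to sham was -2.36 (-2.56 to -2.17) in young I/R and -0.79 (-0.90 to -0.67) in aged I/R. Col4a3, its head-to-head neighbour, stood at 6.04, 1.61, 3.75 and 4.60 CPM, with ratios of -1.90 (-2.35 to -1.48) and 0.29 (0.01 to 0.58). The pair was low together in young I/R only, since Col4a3 in aged I/R lay above its sham value. Part of Col4a3 lies under the opposite-strand gene C430014B12Rik (136 UMIs), and the strand setting of the counting is not given in the sources used here. Of the third pair, Col4a5 stood at 37.7, 25.5, 38.2 and 40.2 CPM, with a ratio of -0.56 in young I/R close to that of the median gene. Col4a6, whose chain joins that of Col4a5 around smooth muscle, stood at 1.47, 0.50, 1.60 and 1.47 CPM.

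Col15a1 and Col18a1 encode the multiplexins, basement membrane collagens that carry sugar chains and release angiogenesis-inhibiting fragments. Col15a1 stood at 51.8, 33.1, 61.5 and 26.8 CPM. Its ratio to sham was -0.65 (-0.76 to -0.54) in young and -1.20 (-1.28 to -1.11) in aged I/R, and relative to the median gene -0.12 and -1.28. It was the abundant collagen gene with the lowest ratio in aged I/R. Col18a1, the source of endostatin, stood at 8.94, 11.7, 9.99 and 10.3 CPM, with ratios of 0.39 (0.16 to 0.62) in young and 0.04 (-0.14 to 0.22) in aged I/R. It overlaps Slc19a1 (469 UMIs) on the other strand.

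The fibrillar genes of the interstitial fibers were lower in young I/R on the CPM scale and close to the median gene. Col3a1 (chr1:45311538-45349706), the type III collagen of compliant fibers, stood at 134, 75.4, 130 and 131 CPM. Its ratio in young I/R was -0.83 (-0.90 to -0.76), or -0.30 relative to the median gene, and in aged I/R 0.01 (-0.04 to 0.06). Col1a2 (chr6:4504814-4541544), which encodes a chain of type I collagen, stood at 91.3, 59.1, 94.0 and 92.3 CPM. Col1a1 (chr11:94936224-94953042), its partner in type I fibers, stood at 44.2, 32.4, 44.4 and 50.8 CPM. Their young ratios were -0.63 and -0.45, which are -0.10 and 0.08 relative to the median gene, so that Col1a1 changed side with the scaling. In aged I/R Col1a1 was at 0.19 (0.11 to 0.28) and Col1a2 at -0.03 (-0.08 to 0.03). Within a library, Col1a1 over Col1a2 was 0.48 (0.45 to 0.52), 0.55 (0.51 to 0.59), 0.47 (0.45 to 0.50) and 0.55 (0.53 to 0.57), higher in both I/R libraries than in both sham libraries, with intervals that overlap in the young hearts.

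Type V collagen starts and limits the growth of type I fibers. Its gene Col5a3 was the third of the fibrillar genes by UMIs, at 66.3, 47.8, 67.8 and 57.8 CPM, with ratios to sham of -0.47 in young and -0.23 in aged I/R. Col5a2 stood at 34.3, 23.9, 39.1 and 40.1 CPM. Col5a1 stood at 35.6, 20.04, 31.3 and 35.2 CPM. Col5a1 was at -0.83 in young I/R, below the median gene, and Col5a2 at -0.52, level with it. Col27a1 and Col11a2 are best known from cartilage. Col27a1 stood at 17.4, 10.2, 21.4 and 15.1 CPM. Col11a2 stood at 6.00, 2.09, 5.01 and 3.16 CPM. Both were lower in I/R at both ages with either scaling, Col11a2 at -1.52 (-1.92 to -1.13) and -0.66 (-0.95 to -0.38) and Col27a1 at -0.77 (-0.97 to -0.57) and -0.51 (-0.64 to -0.37). The rare fibrillar genes Col11a1 and Col2a1 held 2 UMIs each in young sham. Col11a1 reached 15 UMIs in young I/R, a ratio of 2.29 with an interval of 0.18 to 5.46.

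**Figure D3:**
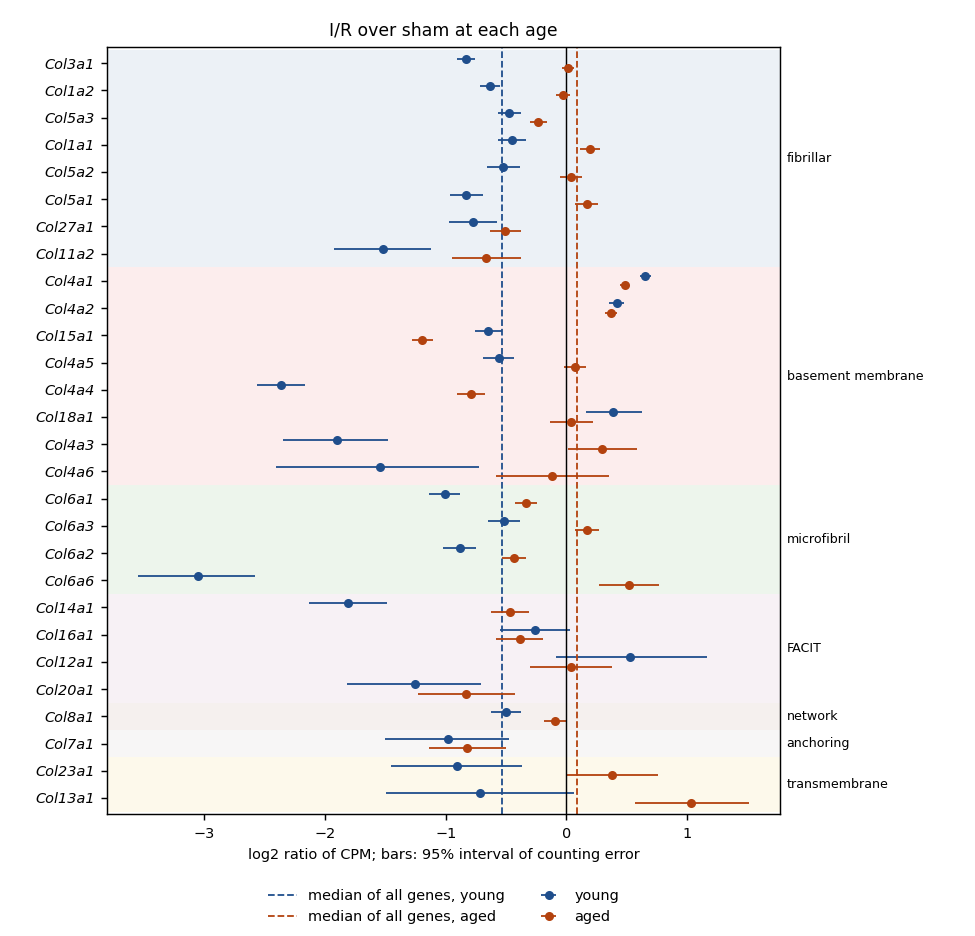
Log2 ratio of CPM in I/R over sham (x axis) for the 28 collagen genes with at least 200 UMIs, young in blue and aged in orange, with 95% intervals of counting error (bars) and the median of all genes as dashed lines at -0.53 and 0.09. Col4a1 and Col4a2 lie to the right of both lines at both ages, Col4a4 lies to the left at both, and Col6a6 is at -3.05 in young and 0.52 in aged hearts.

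Type VI collagen is built of the Col6a1 and Col6a2 chains and 1 further chain, which can be that of Col6a3 or of Col6a6. Col6a1 stood at 43.2, 21.5, 41.5 and 32.9 CPM. Col6a2 stood at 38.1, 20.6, 37.3 and 27.6 CPM. Col6a1 and Col6a2 were below sham in both injured libraries with either scaling, at -1.01 and -0.88 in young and -0.34 and -0.43 in aged I/R. Their ratio to each other stayed between 1.04 and 1.19. Col6a3 stood at 36.2, 25.3, 31.1 and 35.0 CPM, and it was level with the median gene in young I/R at -0.52. In consequence Col6a1 over Col6a3 was 1.19 in young sham and 1.33 in aged sham against 0.85 and 0.94 in the I/R libraries. Col6a6 stood at 9.21, 1.11, 4.69 and 6.72 CPM. It had the lowest ratio of any collagen with at least 200 UMIs in young I/R, -3.05 (-3.55 to -2.59), and a ratio of 0.52 (0.27 to 0.77) in aged I/R. Its neighbour Col6a5 held 5, 0, 11 and 13 UMIs, and the interval of the 0 in young I/R reaches up to 0.093 CPM.

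Of the FACIT collagens, Col14a1 binds the fibers through decorin and stood at 10.3, 2.95, 14.6 and 10.6 CPM. Its ratio was -1.81 (-2.14 to -1.49) in young and -0.47 (-0.62 to -0.31) in aged I/R. Col16a1 stood at 6.85, 5.72, 9.79 and 7.49 CPM, with ratios of -0.26 (-0.55 to 0.03) and -0.39 (-0.58 to -0.19). Its interval in young I/R holds 0, and relative to the median gene it lay there at 0.27. Col20a1 stood at 2.83, 1.18, 2.66 and 1.498 CPM, lower in both injured libraries at -1.25 and -0.83. It overlaps BX649560.1 on the same strand. Col12a1, a FACIT of tissues under load, was the only FACIT gene above sham in young I/R on the CPM scale. It stood at 1.28, 1.84, 2.80 and 2.88 CPM, with a young ratio of 0.53 whose interval of -0.09 to 1.17 holds 0. Of the rare FACIT genes, Col9a3 was at -1.20 in young and -1.03 in aged I/R and Col22a1 at -1.23 in aged I/R, from 133 and 109 UMIs in all.

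The remaining types were a small part. Col8a1, a network collagen of vessel walls, stood at 40.1, 28.3, 38.6 and 36.1 CPM and lay with the median gene in young I/R at -0.50. Its relative Col8a2 held 5, 4, 31 and 16 UMIs. Col7a1, which forms the anchoring fibrils of skin, stood at 2.94, 1.49, 4.21 and 2.38 CPM, with ratios to sham of -0.98 and -0.82. The transmembrane collagens stay in the cell membrane. Of these, Col23a1 stood at 2.55, 1.36, 2.13 and 2.77 CPM. Col13a1, which is needed at the neuromuscular junction, stood at 1.20, 0.73, 1.21 and 2.47 CPM. Col13a1 was the only collagen with at least 200 UMIs that was at least 1.5-fold higher in aged I/R, at 1.03 (0.57 to 1.52). Col25a1 stood under 1 CPM in every library and was at -1.24 (-2.28 to -0.23) in young I/R. Col28a1 and Col26a1, placed in no type, held 107 and 94 UMIs, and Col10a1 and Col19a1 held at most 14 in any library. Col26a1 overlaps Gm20485 on the same strand. Col10a1 was at -3.20 (-8.73 to -0.16) in young I/R, from 6 UMIs to 1, and lies within Nt5dc1 (1176 UMIs).

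In aged hearts fewer collagens lay far from sham than in young hearts, and so did fewer genes of any kind. In aged I/R, 9 of 39 collagen genes were at least 1.5-fold lower than in aged sham (23.1%, against 10.6% of all genes) and 3 higher (7.69%, against 17.6%). Among those with at least 200 UMIs, the lower ones were Col15a1, Col4a4, Col11a2, Col7a1 and Col20a1, and the higher one was Col13a1. The others rest on few UMIs, as Col8a2 at -1.65 (-2.61 to -0.73) does. Relative to the median gene 11 were lower and 3 higher (28.2% and 7.69%), beside 13.4% and 14.5% of all genes. The median collagen ratio was -0.10 and that of all genes 0.09.

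The 2 I/R-over-sham ratios share no library, and their difference was formed gene by gene without a test. The median gene alone differed by 0.62 between the ages, and of the 28 collagens with at least 200 UMIs 14 lay above and 14 below that shift. The type I genes were near it, with differences of 0.60 (0.50 to 0.70) for Col1a2 and 0.64 (0.50 to 0.78) for Col1a1. Other fibrillar genes lay on either side, Col5a1 at 0.995 (0.83 to 1.16) and Col3a1 at 0.84 (0.76 to 0.93) above it, and Col5a3 at 0.24 (0.12 to 0.36) and Col27a1 at 0.27 (0.032 to 0.50) below. Col6a6 was far above it at 3.57 (3.05 to 4.10), as were Col4a3 at 2.20 (1.70 to 2.70), Col4a4 at 1.58 (1.35 to 1.80) and Col14a1 at 1.34 (0.99 to 1.69). Col15a1 at -0.55 (-0.69 to -0.41), Col18a1 at -0.35 (-0.64 to -0.06) and Col4a1 at -0.17 (-0.23 to -0.11) were on the other side, with a ratio that was lower in the aged hearts on the CPM scale as well.

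Aged and young sham hearts were compared with 1 library each, so age cannot be told apart from other differences between the libraries. Aged sham is also the base of the aged I/R ratios, so a high value there raises the ratio between shams and lowers that of aged I/R. Mitochondrial genes took 10.0% of the UMIs in young and 15.6% in aged sham, and Malat1 took 7.34% and 2.88%. In aged sham, 5 of 39 collagens were at least 1.5-fold higher than in young sham (12.8%, against 11.3% of all genes) and 4 lower (10.3%, against 21.4%). The median ratio of the collagens was 0.01, where that of all genes was -0.14. Relative to that median 9 were higher and 3 lower, against 15.2% and 15.4% of all genes. Fibrillar collagens summed to 429 CPM in young and 433 CPM in aged sham, a log2 ratio of 0.01 (-0.02 to 0.05), so the main fiber genes were level in uninjured hearts of either age on the CPM scale and 0.15 above the median gene.

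FACIT collagens were the type with the highest ratio between the sham hearts apart from the single anchoring gene. They summed to 22.9 CPM in young and 32.4 CPM in aged sham, a ratio of 0.50 (0.36 to 0.64). Col14a1 was at 0.50 (0.29 to 0.71), Col16a1 at 0.52 (0.26 to 0.78), Col12a1 at 1.13 (0.57 to 1.74) and Col22a1 at 1.10 (0.22 to 2.07), while Col20a1 was at -0.09. Col7a1 was at 0.52 (0.12 to 0.92), Col27a1 at 0.30 (0.14 to 0.47), Col15a1 at 0.25 (0.15 to 0.34) and Col8a2 at 1.95 (0.58 to 3.67). Intervals lay below both 0 and the median gene for Col6a6 at -0.97 (-1.25 to -0.69) and Col4a3 at -0.69 (-1.02 to -0.36), and by a smaller amount Col4a1 at -0.21 (-0.26 to -0.16). Col4a4 at -0.25, Col11a2 at -0.26, Col6a3 at -0.22 and Col23a1 at -0.26 were also below the median gene, with intervals that reached it. Markers of cartilage and heart valve, all 6 detected, summed to 10.1 CPM in young and 45.0 CPM in aged sham. In the I/R libraries they summed to 6.88 and 18.1 CPM. The list was mixed in aged over young sham, with 4 of the 6 at least 1.5-fold higher and 2 lower. The shares of all genes were 11.3% and 21.4%, and the median marker ratio was 0.74. Their part in the cartilage collagens and FACIT values was not tested.

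**Figure D4:**
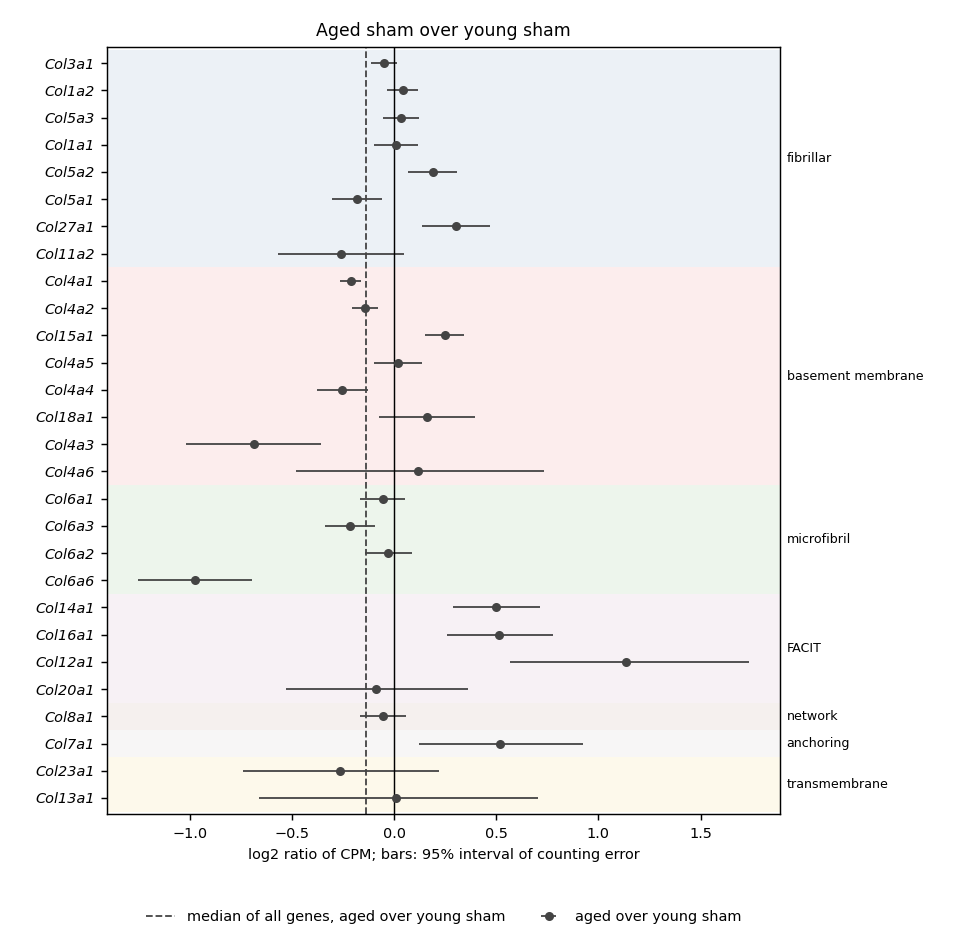
Log2 ratio of CPM in aged sham over young sham (x axis) for the 28 collagen genes with at least 200 UMIs, with 95% intervals of counting error (bars) and the median of all genes as a dashed line at -0.14. Col12a1 is farthest right at 1.13 and Col6a6 farthest left at -0.97, while Col1a1 and Col1a2 lie near 0.

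Between the injured hearts, 23 of 39 collagens were at least 1.5-fold higher in aged than in young I/R (59.0%, against 43.4% of all genes) and 1 was lower (2.56%, against 5.07%). Relative to the median gene, which lay at 0.48, 10 were higher and 8 lower, where all genes gave 20.4% and 17.3%. Col4a1 and Col4a2 were lower in aged I/R at -0.38 (-0.42 to -0.35) and -0.19 (-0.24 to -0.15), as was Col15a1 at -0.30 (-0.40 to -0.20). Highest were Col6a6 at 2.60, Col14a1 at 1.84, Col13a1 at 1.76, Col4a6 at 1.54, Col4a3 at 1.51 and Col4a4 at 1.32. These ratios reuse the young I/R library, so a low value there raises them. Of the rare genes, Col10a1 was at 2.83 (0.08 to 8.25) and Col25a1 at 0.90 (0.03 to 1.84).

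Markers of the cells that make collagen were lower in young I/R on the CPM scale, by about as much as the median gene. The 12 fibroblast markers, which contain no collagen, summed to 773, 496, 948 and 759 CPM. The 12 endothelial markers summed to 1274, 838, 1299 and 1237 CPM, the 10 mural markers to 805, 598, 831 and 792 CPM, and the 12 macrophage markers to 310, 217, 406 and 412 CPM. All markers of these lists were detected. In young I/R 7 of 12 fibroblast, 5 of 12 endothelial and 5 of 10 mural markers were at least 1.5-fold lower, and none was at least 1.5-fold higher, beside 47.5% and 8.03% of all genes. The 3 sums were at -0.11, -0.07 and 0.10 relative to the median gene.

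The ratios of fibrillar and type IV collagens to these sums differed in the young hearts, and both ratios were higher after I/R in the aged ones. In the aged hearts the fibrillar sum itself was level, at 433 CPM in sham and 426 CPM in I/R. The fibroblast marker sum below it was 948 and 759 CPM. Fibrillar UMIs per fibroblast marker UMI were 0.556 (0.543 to 0.569), 0.547 (0.534 to 0.560), 0.457 (0.449 to 0.465) and 0.560 (0.552 to 0.569), level in the young libraries and higher in aged I/R than in aged sham. Aged sham was the low library here, and aged I/R was near both young values. Of the 12 fibroblast markers 4 were at least 1.5-fold lower and 1 higher in aged I/R, beside 10.6% and 17.6% of all genes. Col4a1 and Col4a2 UMIs per endothelial and mural marker UMI were 0.159 (0.155 to 0.162), 0.341 (0.335 to 0.346), 0.136 (0.134 to 0.139) and 0.194 (0.191 to 0.196). They were higher in I/R than in sham at both ages, and these ratios were chosen after the sums had been seen. Neutrophil markers summed to 14.2, 97.6, 23.5 and 97.1 CPM and the 7 Schwann cell markers to 99.9, 42.0, 88.9 and 73.9 CPM. The part of these cells in the collagen values was not tested.

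Barcodes were also sorted by their marker UMIs, taking those with at least 2 UMIs of 1 list and more than of any other. Fibrillar collagens were higher in fibroblast-marked barcodes than in those without any marker UMI, at 719 against 399.9 CPM in young sham, 349.5 against 261.5 CPM in young I/R, 575 against 399.7 CPM in aged sham and 524 against 395 CPM in aged I/R. The folds were 1.80 (1.64 to 1.97), 1.34 (1.18 to 1.51), 1.44 (1.36 to 1.53) and 1.33 (1.26 to 1.40). Mural-marked barcodes were also above unmarked ones, by less, with folds of 1.17 (1.05 to 1.31), 1.185 (1.06 to 1.32), 1.10 (1.02 to 1.18) and 1.08 (1.02 to 1.14). Macrophages should lack most collagens, yet macrophage-marked barcodes held 488, 265, 429 and 410.1 CPM of fibrillar collagen, with folds over unmarked barcodes of 1.22 (0.96 to 1.52), 1.01 (0.74 to 1.35), 1.07 (0.94 to 1.23) and 1.04 (0.95 to 1.13). Of the 28 collagens with at least 200 UMIs, 15 were higher in fibroblast-marked than in unmarked barcodes of every library, 7 of them among the 8 fibrillar genes. The counts were 8 for endothelial, 9 for mural and 1 for macrophage markers. They were not made over all genes, so no share of all genes stands beside them. By the summed folds, fibrillar collagen leaned to fibroblast-marked barcodes by less than 2-fold at this limit of marker UMIs. Folds of fibroblast-marked over macrophage-marked barcodes were 1.47 (1.16 to 1.89), 1.32 (0.96 to 1.84), 1.34 (1.17 to 1.55) and 1.28 (1.18 to 1.39). The interval of young I/R holds 1. Why macrophage-marked barcodes stood close to unmarked ones was not tested.

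Col4a1 and Col4a2 showed still less separation. Folds of endothelial-marked over unmarked barcodes were 1.21 (1.11 to 1.32), 1.07 (1.002 to 1.14), 1.11 (1.04 to 1.19) and 1.08 (1.03 to 1.13). No other marked class had intervals clear of 1 in every library. With barcodes of at least 200 detected genes the young I/R fold was 1.07 (0.99 to 1.15), which holds 1. In young sham they summed to 327, 389, 365 and 297 CPM in fibroblast, endothelial, mural and macrophage-marked barcodes and 321 CPM in unmarked ones. In young I/R the values were 541, 520.0, 504 and 455 CPM, and 486 CPM in unmarked barcodes. The aged values were 289.6, 310.1, 285, 301 and 278 CPM in sham and 403, 399, 418, 374 and 369 CPM in I/R. The sum was higher in I/R than in sham in each of the 5 classes at both ages. From these classes no cell type could be given as the source of the higher type IV level. The reason for the small separation was not tested, nor whether a barcode stands for a single cell. Marked barcodes held medians of 295 to 774 UMIs in these 4 classes and unmarked ones 224 to 546, and between 60.2% and 94.9% of marked barcodes had only the minimum of 2 marker UMIs.

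**Figure D5:**
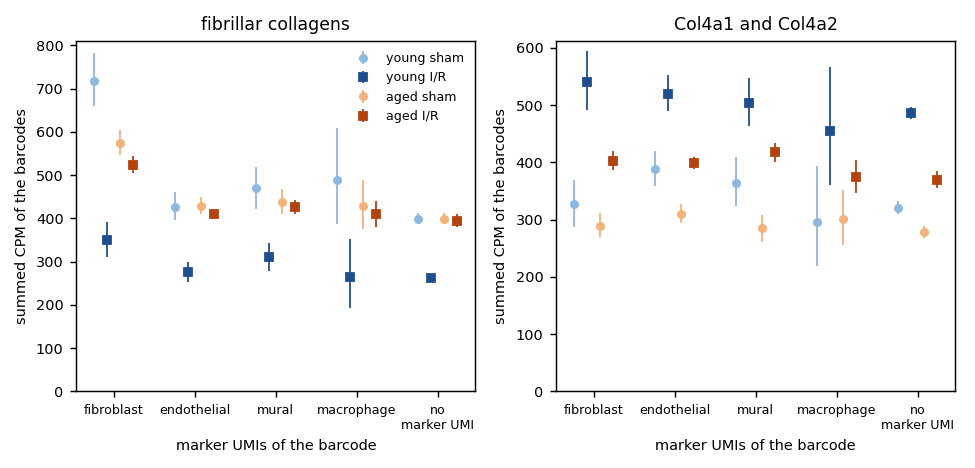
Summed CPM (y axis, from 0) of the fibrillar collagens (left) and of Col4a1 with Col4a2 (right) in barcodes sorted by their marker UMIs (x axis), in the 4 libraries (colored points) with 95% Poisson intervals of counting error (bars). Fibrillar values are highest in fibroblast-marked barcodes, 719 CPM in young sham, while the type IV values differ more between libraries than between barcode classes.

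The genes that modify, secrete, cross-link and bind collagen were followed in 6 lists. New chains are hydroxylated and folded in the endoplasmic reticulum. Of 18 such genes, 3 were at least 1.5-fold higher and 6 lower in young I/R, 1 and 3 in aged I/R, and 3 and 3 in aged sham over young sham. As for the lists that follow, the shares of all genes were 8.03% and 47.5% in young I/R, 17.6% and 10.6% in aged I/R, and 11.3% and 21.4% in aged over young sham, and pathway ratios are on the CPM scale, to be read against medians of -0.53, 0.09 and -0.14. In young I/R 12 of the 18 lay above the median gene. In young I/R Fkbp10, a chaperone of type I collagen, was at 0.83 (0.63 to 1.03) and P4hb, the common subunit of the prolyl hydroxylases, at 0.66 (0.57 to 0.75), while Colgalt2 was at -1.57 and P4ha2 at -1.23. In aged I/R P3h3 was at 0.92 and P4ha1 at 0.46, against -0.81 for P3h2 and -0.72 for Colgalt2. Of 11 genes for export and trimming none was 1.5-fold higher and 5 were lower in young I/R, with Mia2 at -1.20 and Adamts3 at -1.16 the lowest, and 6 of the 11 lay above the median gene. Of the same genes 1 was higher and none lower in aged I/R, and none was higher and 3 were lower in aged over young sham. The higher one in aged I/R held fewer than 100 UMIs in that comparison.

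Cross-linking enzymes held the highest ratios in young I/R among the pathway genes with at least 100 UMIs. Lox, the lysyl oxidase that joins collagen fibers, went from 2.28 to 12.4 CPM, a ratio of 2.44 (2.05 to 2.85), and Tgm2, a transglutaminase, from 57.9 to 151 CPM, a ratio of 1.38 (1.30 to 1.46). In aged hearts Lox stood at 4.93 in sham and 7.10 in I/R, a ratio of 0.53 (0.29 to 0.77), and Tgm2 at 82.7 and 113, a ratio of 0.45. Pxdn, the peroxidasin that makes the sulfilimine bonds of type IV collagen, went the other way from Col4a1 in young I/R, from 53.8 to 21.2 CPM at -1.34 (-1.47 to -1.22). Of the 7 genes 2 were higher and 2 lower in young I/R, and 1 and 2 in aged I/R. The 2 lower in aged I/R were Loxl1 at -0.76 and Loxl3 at -0.71, and the higher one held fewer than 100 UMIs in that comparison. In aged sham over young sham 2 were higher and none lower, with Lox at 1.11 and Loxl3 at 0.67.

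Of 10 partners of type IV collagen in the basement membrane none was 1.5-fold higher in young I/R and 7 were lower (47.5% of all genes), and 2 lay above the median gene. Agrn was at -1.38 and Lama2, the laminin chain around muscle fibers, at -1.25, and the highest were Hspg2 (perlecan) at -0.02 and Lamc1 at -0.29, which are 0.51 and 0.24 relative to the median gene. In aged I/R 1 was higher and 2 lower: Lamc1, a laminin chain common to most basement membranes, was at 1.27 (1.20 to 1.35) and Hspg2 at -1.11 (-1.15 to -1.07), from 284 to 131 CPM. In aged over young sham Hspg2 was at 0.62 and Lama2 at -0.87, with 1 of 10 higher and 1 lower.

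Of 6 detected genes for proteins on the fibers 4 were lower and none higher in young I/R (47.5% and 8.03% of all genes), with Tnxb at -1.48 and Ogn at -1.42 at one end and Sparc at 0.08 and Bgn at -0.24 at the other, or 0.61 and 0.29 relative to the median gene. In aged I/R 2 were lower and none higher, Fmod at -1.56 and Bgn at -0.82. In aged over young sham Fmod was at 1.54 and Bgn (biglycan) at 0.65. Both comparisons use the same aged sham library, where Fmod stood at 3.14 CPM, against 1.08 CPM in young sham and 1.06 CPM in aged I/R. Kera of this list had 0 UMIs in every library. Of 10 collagen receptors 2 were higher and 5 lower in young I/R, close to the share of all genes for the lower ones, and 5 lay above the median gene, with Adgrg1 at 0.91 and Itgb1, the shared integrin subunit, at 0.68 against Lair1 at -1.93 and Itga10 at -1.33. In aged I/R 1 receptor, with fewer than 100 UMIs in that comparison, was higher and none lower. In aged over young sham the counts were none and 2, and Itgb1 in aged I/R was at 0.34 (0.30 to 0.37).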

How the data were processed

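Libraries were made with a 3′ gene expression kit of the 10x Chromium system, and the submitters' processing notes name Cell Ranger 6.0.2 and the mm10 build. The authors deposited filtered matrices of raw counts: each value is a whole number of UMIs, not scaled. Whether introns or strand entered the counting is not given in the sources used here.

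UMIs were summed over all deposited barcodes of a library and given as CPM. Ratios of CPM carry exact conditional binomial intervals, CPM exact Poisson intervals and shares exact binomial intervals, all at 95% and for counting error only. Differences of ratios between ages carry normal approximations of the same error. With 1 library per condition no test was made, and called means a CPM ratio of at least 1.5-fold over 17699 genes with 20 or more UMIs. Collagens with 200 or more UMIs are given in every library, rarer ones by name where 1.5-fold apart with an interval clear of 1, and pathway genes as the 2 highest and 2 lowest with 100 or more UMIs in the comparison, not all of them printed. A barcode was assigned to a marker list with at least 2 of its UMIs and more than of any other of 6 lists. No clusters were made and doublets were not removed. Positions are from GENCODE M21. Members and lists were chosen with earlier results of these data known. Python 3.11.15, numpy 2.4.6, scipy 1.17.1, pandas 2.3.3 and matplotlib 3.10.9 were used, and the calculations were tested on simulated data. Alternatives were another scaling, totals without Gm42418, Malat1 and mitochondrial genes, barcodes with at least 200 genes, other UMI limits, types without their most abundant gene, and 3 marker UMIs.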

Additional observations from a re-analysis of the deposited data

Results flagged for a closer look

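Col6a6, an alternative chain of type VI collagen, lay on opposite sides of sham at the 2 ages. The log2 ratio to sham was -3.05 in young hearts (238 UMIs in sham and 44 in I/R) and 0.52 in aged hearts (194 and 449 UMIs). It kept these signs relative to the median gene, at -2.52 and 0.43. With 1 library per condition the difference was not tested between animals. The young I/R library is the one with the low median gene ratio of -0.53 and the high share of Gm42418. In that comparison the Schwann cell marker sum was at -1.25 and the fibroblast marker sum at -0.64. Relative to the median gene these sums were at -0.72 and -0.11. Of the 7 Schwann markers 4 were at least 1.5-fold lower, beside 47.5% of all genes, and 2 lay above the median gene. The part of these cells in the Col6a6 values was not tested.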

How the results depend on the processing

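Values are log2 ratios unless named as counts or folds, and sets of 4 run through I/R over sham in young and in aged hearts, then through aged over young in sham and in I/R hearts. No paired analysis was possible because each condition has 1 library, so no library could be left out either. Of the summary values recomputed, 73 stayed within their counting interval, or 1.5 times for a count, and 67 did not. Relative to the median gene the median collagen ratio was -0.24 in young I/R and 0.17 in aged over young I/R. Genes 1.5-fold higher numbered 7 in young I/R, 9 in aged over young sham and 10 in aged over young I/R, and lower ones 12 in young I/R and 8 in aged over young I/R. In the 4 comparisons fibrillar sums were then -0.13, -0.11, 0.15 and 0.17, basement membrane sums 0.80, 0.10, 0.0198 and -0.68, and microfibril sums -0.36, -0.25, -0.0062 and 0.10. FACIT sums were -0.34 in young I/R and 0.45 in aged over young I/R. The basement membrane sum in aged over young sham thereby changed sign. With the other totals that follow, no share of all genes was computed, so the counts of genes there have none beside them. With totals that leave out Gm42418, Malat1 and mitochondrial genes, the fibrillar sums were -0.52, -0.12, 0.088 and 0.49, the basement membrane sums 0.42, 0.092, -0.041 and -0.36, the microfibril sums -0.74, -0.26, -0.067 and 0.42, the FACIT sum in aged over young I/R 0.76, and there 15 genes were higher and 3 lower. With barcodes of at least 200 detected genes the fibrillar sums were -0.57, -0.065, 0.088 and 0.60, the basement membrane sums 0.33 in young I/R, -0.069 in aged over young sham and -0.24 in aged over young I/R, the microfibril sum in young I/R -0.81, and the fibrillar fold of fibroblast-marked barcodes in young sham 2.06.

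Without Col4a1 the basement membrane sums were -0.11, -0.063, -0.047 and 0.0019, so that on the CPM scale the higher sums in I/R rested on that gene, while Col4a2 alone was at 0.42 and 0.37. Without Col3a1 the fibrillar sums were -0.59 in young I/R and 0.59 in aged over young I/R, without Col14a1 the FACIT sums -0.40 and 0.46, and without Col6a1 the microfibril sum in aged I/R -0.079. With at least 200 UMIs 1 gene was higher in each of young I/R, aged I/R and aged over young sham, and lower were 5 in aged I/R, 2 in aged over young sham and 0 in aged over young I/R. With no limit 5 were higher in aged I/R and 3 lower in aged over young I/R. Shares of all genes were not computed at these other limits. With 3 marker UMIs the fibrillar folds were 2.44 and 1.68 in young and aged sham hearts and 1.499 after aged I/R, and in young I/R 1.30 with an interval of 0.90 to 1.81 that holds 1, while those of Col4a1 with Col4a2 were 1.16 and 1.13 in the sham libraries. Counts limit the rare genes: 11 of 39 collagens held fewer than 200 UMIs in all.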
